A study of Homo sapiens with 6 samples.

Results

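The genes described here are 10 writers and erasers of DNA methylation and their cofactors: DNMT1, DNMT3A, DNMT3B, DNMT3L, UHRF1, UHRF2, HELLS, TET1, TET2 and TET3. They were picked by symbol from a table of 16715 distinct gene identifiers, and all 10 were found in it. The cells were HCT116, an established line from a human colorectal tumour, and their RNA gave 3 libraries after 5aza and 3 control libraries. The 5aza cells received 5 µM of the agent over 48 hours and were then kept for another 48 hours in fresh medium. The titles and protocol call the agent 5aza, while the table's columns are coded DAC, a common short form of decitabine, so which azanucleoside was used is not settled here. Control cells are labelled only as control, with no vehicle named, and both groups were at passages 7 to 10. The labels do not say whether the replicates were separate cultures, so p-values measure the spread between these libraries, which may be technical.

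Methyl groups on CpG cytosines are copied at each S phase by DNMT1, which UHRF1 brings to hemimethylated sites and which needs the remodeller HELLS for much of the genome. DNMT3A and DNMT3B add methylation to unmodified DNA, with DNMT3L as a catalytically inactive helper in germ cells, and the TET dioxygenases oxidise 5-methylcytosine so that it can be lost or excised. Azanucleosides enter nucleic acids and trap DNA methyltransferase protein covalently, so RNA levels of these genes do not report how much enzyme remained.

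Values are FPKM, in which read support is divided by gene length and by library size, and can be compared between genes as levels per length. Fixed markers of cell type were also read, which cannot tell HCT116 from other epithelial lines. The 8 epithelial markers summed to between 2846 and 2918 FPKM in 5aza libraries, against between 2346 and 2500 FPKM in control libraries. KRT8, KRT18 and KRT19 made up most of that sum, and they and CDH1 rose, whereas EPCAM fell (153 FPKM in 5aza, 166 FPKM in control, limma adjusted p = 0.0213). CDX2 did not pass, and VIL1 and CDX1 were near 0 FPKM. The 8 markers of blood, endothelium, fibroblast and muscle summed to between 10.4 and 11.2 FPKM in 5aza libraries, against between 6.04 and 6.66 FPKM in control libraries. Most of that sum was COL1A1 (6.71 and 4.67 FPKM in the 5aza and control means) and DES (3.50 and 1.62 FPKM). The leukocyte gene PTPRC averaged 0.0650 FPKM in 5aza and 0.00798 FPKM in control libraries. The part of these markers in the results was not tested. Rows listed at 0 numbered between 755 and 801 in 5aza libraries and between 1663 and 1761 in control libraries.

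For these genes, setting 5aza against control asks whether the machinery of DNA methylation itself differs in RNA level. Among the maintenance genes, mean HELLS RNA fell by 26.5%, DNMT1 fell by 25.6% and UHRF1 fell by 12.1% in 5aza cells. In bulk RNA, fewer cells of a type and less RNA per cell cannot be told apart. None of the 9 genes tested rose in the main fit, which has a variance trend. In that fit the de novo enzymes, UHRF2 and the TET genes did not pass, with mean changes between -5.61% and 15.3%. Without the variance trend, DNMT3A passed as a rise (limma adjusted p = 0.0355). DNMT3L was listed at or near 0 FPKM in every library. Of the 10 genes, 9 passed the filter on low values, each with at least 0.5 FPKM in all 6 libraries, and were tested with limma. Of these 9, 3 fell (adjusted p under 0.05), where 23.7% of 12360 genes tested were called in either direction, 13.1% as fallen and 10.6% as risen. Among genes with a mean of at least 20 FPKM, as DNMT1, UHRF1 and HELLS have, 35% were called, 26.4% as fallen and 8.53% as risen. The median log2 fold change was 0.02 over the 9 genes and -0.01 over all genes tested.

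DNMT1 (ENSG00000130816, chr19:10133345-10231286, minus strand) had 46.5, 49.1 and 47.3 FPKM in 5aza replicates 1 to 3, against 75.4, 61.5 and 55.1 FPKM in control replicates 1 to 3. The groups did not overlap, as in 42.2% of all genes tested and 53.9% of those of at least 20 FPKM. The control libraries were spread widely, with replicate 1 the highest, while the 5aza libraries lay close together. The means were 47.6 ± 1.35 FPKM in 5aza and 64.0 ± 10.4 FPKM in control (SD, n = 3), a log2 change of -0.41 (SE 0.10, 95% interval -0.65 to -0.18, limma adjusted p = 0.0236). Without control replicate 1, the highest of the 6, the log2 change was -0.29 (adjusted p = 0.0189). The DNMT1 fall did not pass once any single 5aza replicate was left out (adjusted p = 0.0688, 0.0566 and 0.0706 for replicates 1, 2 and 3) or without control replicate 2 (0.0536). The DNMT1 call was also lost with no filter on low values (0.0551), no variance trend (0.0629) or scaling to the upper quartile of non-zero rows (0.0546). The last setting moved the median log2 fold change of all genes to 0.12. Its exons share 83 bases with S1PR2 on the same strand, and those reads are uncertain.

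HELLS (ENSG00000119969, chr10:94501434-94613905, plus strand) encodes an SNF2-family remodeller whose mutation causes an immunodeficiency with centromeric hypomethylation. It had 26.9, 26.8 and 24.1 FPKM in 5aza replicates 1 to 3, against 37.4, 37.1 and 31.3 FPKM in control replicates 1 to 3. The third replicate was the lowest in both groups, and the groups did not overlap. The means were 25.9 ± 1.59 FPKM in 5aza and 35.3 ± 3.43 FPKM in control (SD, n = 3), a log2 change of -0.44 (SE 0.08, 95% interval -0.62 to -0.26, limma adjusted p = 0.00675). Of the 3 falls, that of HELLS was the only one to pass without each library in turn, with adjusted p between 0.00233 and 0.0280. Among all 12360 genes tested, HELLS ranked 183 and DNMT1 230, counting from the most negative log2 fold change. HELLS shares 438 exonic bases with AL138759.1 on the same strand, and those reads are uncertain.

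UHRF1 (ENSG00000276043, chr19:4903080-4962154, plus strand), the E3 ligase that reads hemimethylated CpG, had 66.9, 70.1 and 63.6 FPKM in 5aza replicates 1 to 3, against 76.2, 77.4 and 74.6 FPKM in control replicates 1 to 3. All 3 5aza libraries lay below the lowest control library. The means were 66.9 ± 3.25 FPKM in 5aza and 76.1 ± 1.39 FPKM in control (SD, n = 3), a log2 change of -0.19 (SE 0.04, 95% interval -0.28 to -0.09, limma adjusted p = 0.0159). UHRF1 no longer passed without control replicate 2 (adjusted p = 0.0550), under quantile normalization (0.0568) or with no variance trend (0.0516). It also did not pass after removing the dependence of fold change on level (0.0941) or with libraries scaled to the upper quartile of their non-zero rows (0.257). The last setting moved the median log2 fold change of all genes to 0.12.

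**Figure D1:**
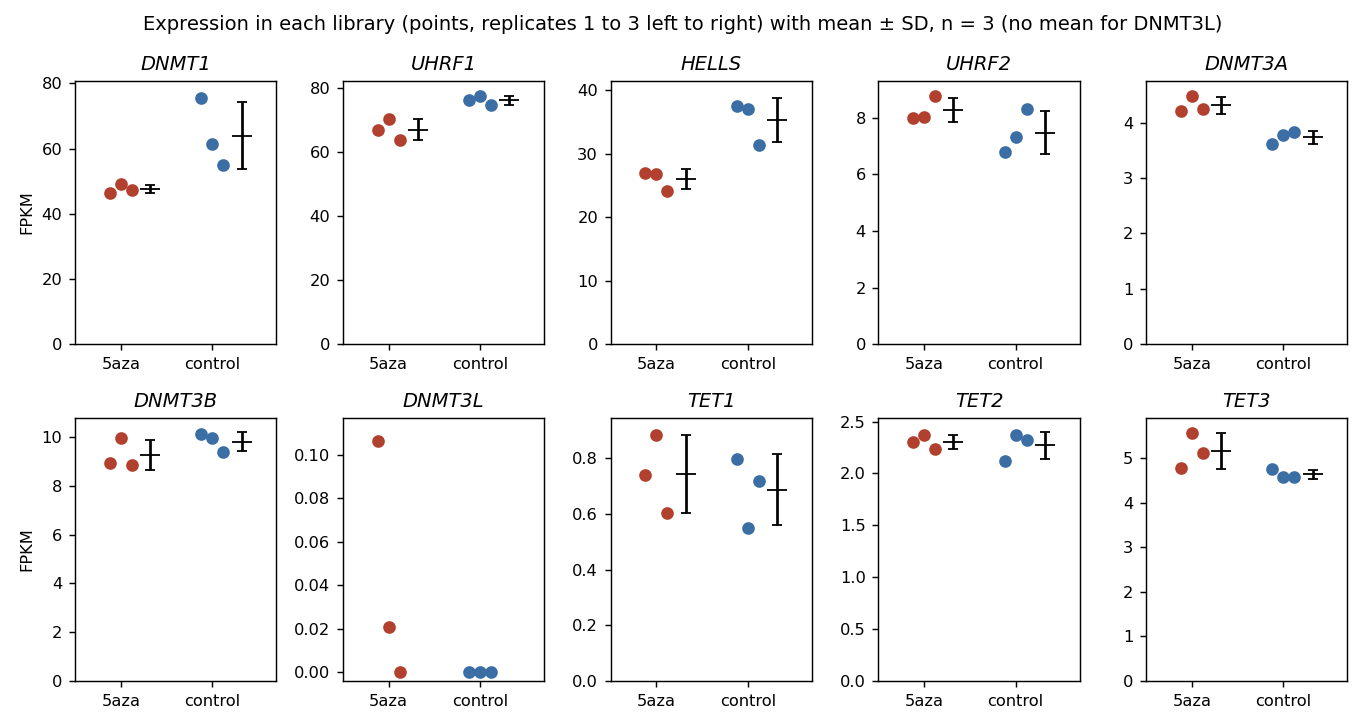
FPKM of each of the 10 genes in every library, 5aza left and control right, each panel on its own linear axis, with the mean and SD of 3 libraries beside the points (none for DNMT3L). DNMT1, UHRF1 and HELLS have all 5aza points below all control points, DNMT3A and TET3 all 5aza points above, and the other genes overlap.

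**Figure D2:**
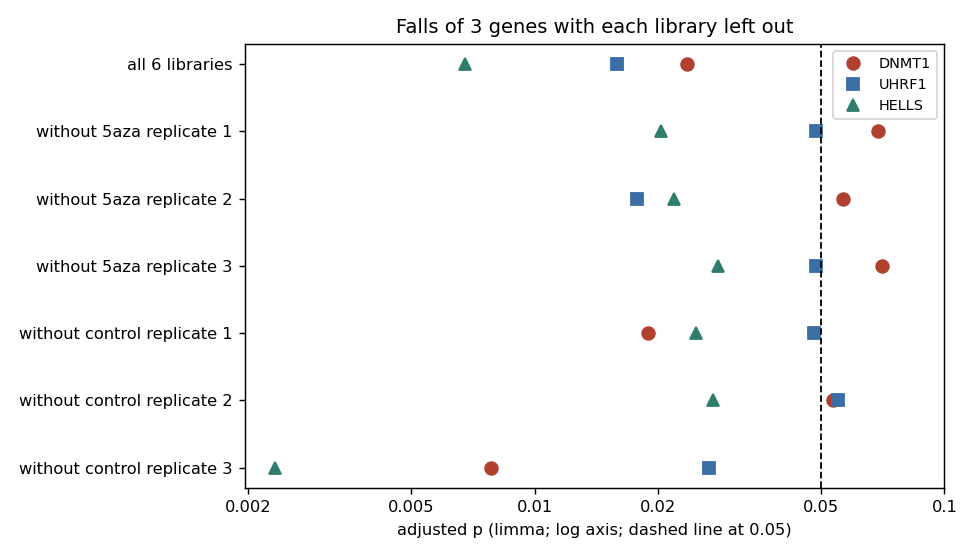
Limma adjusted p of DNMT1, UHRF1 and HELLS with all 6 libraries and with each library left out (log axis, dashed line at 0.05). HELLS stays between 0.00233 and 0.0280, DNMT1 is above 0.05 in 4 of the 6 subsets, and UHRF1 in 1.

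The promoters of these 3 genes are shown because these are the 3 that fell. Each stretch is 180 bases of RefSeq sequence on GRCh38.p14, from 150 bases before to 30 bases after the annotated start, written on the gene's strand. Capitals mark octamers of the E2F type, the kind found in many genes of S phase. The octamers searched on both strands were TTTCCCGC, TTTCGCGC, TTTGCCGC and TTTGGCGC, a choice made with the falls already known.
DNMT1, chr19:10194924-10195103, minus strand: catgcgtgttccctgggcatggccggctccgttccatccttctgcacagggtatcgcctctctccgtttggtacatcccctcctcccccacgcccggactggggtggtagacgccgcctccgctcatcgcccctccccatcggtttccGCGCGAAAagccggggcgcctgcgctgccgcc
UHRF1, chr19:4909351-4909530, plus strand: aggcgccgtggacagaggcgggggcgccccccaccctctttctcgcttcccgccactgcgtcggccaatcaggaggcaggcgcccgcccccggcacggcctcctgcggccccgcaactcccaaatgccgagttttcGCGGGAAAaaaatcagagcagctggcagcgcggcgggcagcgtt
HELLS, chr10:94545638-94545817, plus strand: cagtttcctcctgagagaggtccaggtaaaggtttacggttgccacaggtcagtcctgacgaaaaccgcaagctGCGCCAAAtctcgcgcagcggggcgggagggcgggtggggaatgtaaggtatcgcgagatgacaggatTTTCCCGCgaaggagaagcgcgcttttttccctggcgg

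In DNMT1 the octamer spans the start, from base -2 to base 6, counting -1 as the last base before the start and 1 as the first after it. In UHRF1 it lies from -14 to -7, and in HELLS there are 2, from -76 to -69 and from -8 to -1. Windows of 300 bases (250 before to 50 after the start) were on hand for 9 of the 10 genes, with several starts for some. The octamers were in the windows of DNMT1, UHRF1 (2 of its 3 starts) and HELLS. Those letters were in none of the windows of DNMT3A, DNMT3B, UHRF2, TET1, TET2 and TET3. The only DNMT3B window, chr20:32779602-32779901, lies downstream of the start of its gene span at 32762385, and that start was not searched. Windows of DNMT1, UHRF1 and HELLS also lie inside their gene spans. They were in 3.31% of all 35116 windows and in at least 1 window of 6.68% of tested genes that have one. The same share was 12.1% for genes that fell, 4.01% for genes that rose, and 53.3% (16 of 30) for the DNA replication genes described next. A match describes letters and shows no binding.

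Genes of DNA replication were taken as the nearest comparison, since DNMT1, UHRF1 and HELLS act at replicated DNA. The list excludes these 3, and 33 of its genes were tested. Falls numbered 30 and rises 1, where 13.1% of all genes tested fell (26.4% of those of at least 20 FPKM) and 10.6% rose (8.53%). The other 2 (GINS4 and POLA2, named after their values were seen) did not pass. The median log2 fold change of the 33 was -0.30. MCM5, a helicase subunit, averaged 101 FPKM in 5aza and 137 FPKM in control libraries, and RFC4, a clamp loader subunit, 50.5 and 68.8 FPKM. Cyclin E1 (CCNE1) rose, with 27.3 FPKM in 5aza and 24.9 FPKM in control (limma adjusted p = 0.0482), which did not pass once any single library was left out (adjusted p from 0.0731 to 0.139). HELLS and DNMT1 lay inside the range of these genes: 2 of the 33 had a more negative log2 fold change than HELLS and 4 than DNMT1. For UHRF1, 27 of the 33 were more negative.

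Each library was therefore also scaled to the mean log2 value of the 33 replication genes, so that a change of 0 means a change equal to theirs. This moved the median of all genes tested to 0.27, and 65% of genes tested then rose and 0.591% fell. On this scale DNMT1 had a log2 difference of -0.14 (95% interval -0.36 to 0.09, limma adjusted p = 0.246) and HELLS -0.16 (-0.32 to -0.01, adjusted p = 0.0620), neither past the threshold. UHRF1 turned to 0.09 (0.01 to 0.17, adjusted p = 0.0390). A larger fall than that of the replication genes was thus not shown for any of the 3, although the unadjusted interval of HELLS lies just below 0 and that of DNMT1 includes falls of that kind. Of the 9 genes, 6 rose on this scale, a share close to the 65% of all genes.

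**Figure D3:**
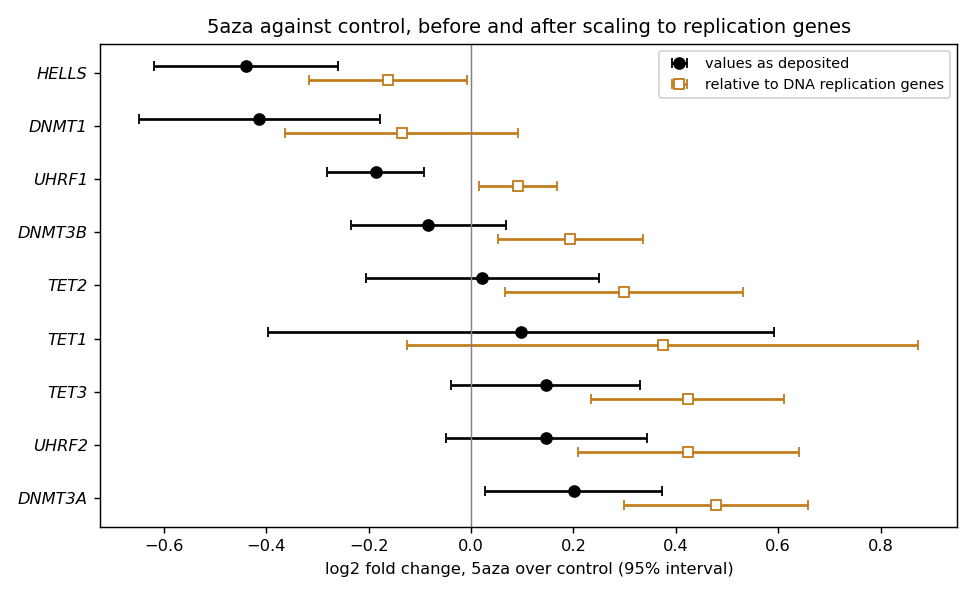
Log2 fold change of 5aza over control with its 95% interval for the 9 tested genes, from values as deposited (filled circles) and relative to DNA replication genes (open squares). HELLS, DNMT1 and UHRF1 lie at -0.44, -0.41 and -0.19 as deposited, and at -0.16, -0.14 and 0.09 relative to replication genes.

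Pairs of genes were compared as log2 ratios within a library, which no scaling of the library can change, with exact two-sided permutation tests over 5 pairs. With 3 libraries against 3, the smallest p such a test allows is 0.10. The ratio of DNMT1 to HELLS averaged 0.88 ± 0.09 in 5aza and 0.85 ± 0.14 in control (SD, n = 3), with overlapping groups (exact p = 0.80, BH-adjusted 0.80). DNMT1 to UHRF1 averaged -0.49 ± 0.05 in 5aza and -0.26 ± 0.22 in control, also overlapping (exact p = 0.20, adjusted 0.25). HELLS to UHRF1 averaged -1.37 ± 0.05 in 5aza and -1.11 ± 0.12 in control, without overlap (exact p = 0.10, adjusted 0.167). UHRF1 to its paralogue UHRF2 averaged 3.02 ± 0.14 in 5aza and 3.35 ± 0.16 in control, without overlap and with the same p.

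UHRF2 (ENSG00000147854, chr9:6413151-6507054, plus strand), a relative of UHRF1 that does not replace it in maintenance, had 8.01, 8.03 and 8.76 FPKM in 5aza replicates 1 to 3, against 6.79, 7.33 and 8.30 FPKM in control replicates 1 to 3. The groups overlapped, and the third replicate was the highest in both. The log2 change was 0.15 (SE 0.08, 95% interval -0.05 to 0.34, limma adjusted p = 0.248).

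DNMT3A (ENSG00000119772, chr2:25227855-25342590, minus strand) had 4.20, 4.48 and 4.25 FPKM in 5aza replicates 1 to 3, against 3.61, 3.78 and 3.82 FPKM in control replicates 1 to 3. All 3 5aza libraries were above all 3 control libraries. The log2 change of 0.20 (SE 0.07, 95% interval 0.03 to 0.37) did not pass the test across all genes (limma adjusted p = 0.0906), but passed with no variance trend (adjusted p = 0.0355). It also passed with scaling to non-zero rows (0.0161), a setting that moved the median of all genes to 0.12.

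DNMT3B (ENSG00000088305, chr20:32762385-32809356, plus strand), the de novo enzyme with the higher RNA level in these cells, had 8.96, 9.98 and 8.88 FPKM in 5aza replicates 1 to 3, against 10.1, 9.96 and 9.38 FPKM in control replicates 1 to 3. The groups overlapped, with a log2 change of -0.08 (SE 0.07, 95% interval -0.24 to 0.07, limma adjusted p = 0.395). The ratio of DNMT3A to DNMT3B within a library averaged -1.10 ± 0.05 in 5aza and -1.39 ± 0.10 in control on the log2 scale (SD, n = 3), without overlap (exact p = 0.10, adjusted 0.167).

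DNMT3L (ENSG00000142182, chr21:44246339-44262216, minus strand), normally a gene of germ and embryonic cells, was listed at 0.106, 0.0207 and 0 FPKM in 5aza replicates 1 to 3 and at 0 in all 3 control libraries. It did not reach the filter and was not tested. Its exons overlap those of the antisense gene AP001059.1 by 241 bases, and without a stated strand setting their reads cannot be told apart.

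Of the summed FPKM of the 3 catalytic enzymes DNMT1, DNMT3A and DNMT3B, DNMT1 held 77.9%, 77.3% and 78.3% in 5aza replicates 1 to 3, against 84.6%, 81.7% and 80.7% in control replicates 1 to 3. The groups did not overlap. The mean share was 4.51 percentage points lower in 5aza libraries (exact permutation test, two-sided, p = 0.10, the smallest possible here). DNMT3A held 7.04% ± 0.01 in 5aza and 4.89% ± 0.79 in control, and DNMT3B 15.1% ± 0.50 in 5aza and 12.8% ± 1.26 in control (SD, n = 3). A higher share need not mean a higher level. Mean DNMT3B was 9.27 FPKM in 5aza and 9.82 FPKM in control, and mean DNMT3A 4.31 and 3.74 FPKM. The 3 enzymes together summed to 61.2 ± 2.08 FPKM in 5aza and 77.6 ± 10.6 FPKM in control.

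**Figure D4:**
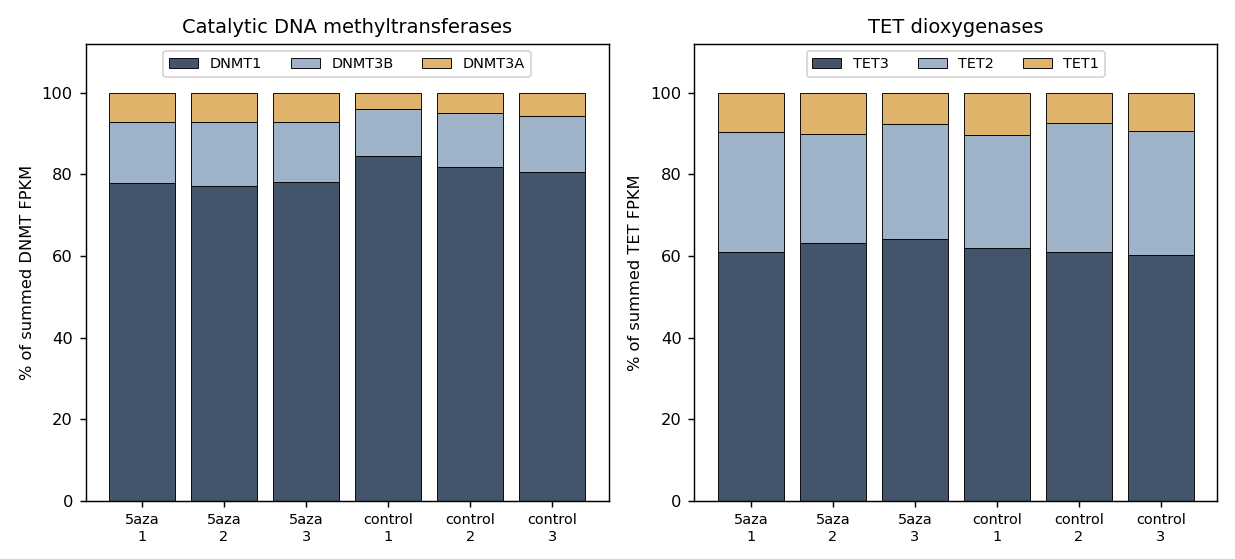
Share of each gene in the summed FPKM of DNMT1, DNMT3B and DNMT3A (left) and of TET3, TET2 and TET1 (right), as stacked bars for each library. DNMT1 takes 77.3% to 78.3% in 5aza libraries and 80.7% to 84.6% in control libraries, while TET3 takes about 60% to 64% in all.

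Of the TET genes, the erasers, TET3 had a higher mean FPKM than DNMT3A in both groups, and TET2 and TET1 had lower ones. TET3 (ENSG00000187605, chr2:73986404-74108176, plus strand) was the most abundant of them, with 4.77, 5.58 and 5.11 FPKM in 5aza replicates 1 to 3, against 4.76, 4.57 and 4.59 FPKM in control replicates 1 to 3. Its groups did not overlap, but 5aza replicate 1 lay only just above control replicate 1. The log2 change was 0.15 (SE 0.08, 95% interval -0.04 to 0.33, limma adjusted p = 0.224). With scaling to non-zero rows TET3 passed, at 0.27 (limma adjusted p = 0.0367). The calls among the 9 genes were then 2 rises (DNMT3A and TET3) and 1 fall (HELLS). In that setting 3606 of 12358 genes tested rose and 500 fell, and the median log2 fold change of all genes was 0.12.

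TET2 (ENSG00000168769, chr4:105145875-105279816, plus strand), often mutated in blood cancers, had 2.30, 2.37 and 2.24 FPKM in 5aza replicates 1 to 3, against 2.12, 2.37 and 2.32 FPKM in control replicates 1 to 3. The log2 change was 0.02 (95% interval -0.21 to 0.25, limma adjusted p = 0.895). TET1 (ENSG00000138336, chr10:68560656-68694482, plus strand) had 0.741, 0.884 and 0.602 FPKM in 5aza replicates 1 to 3, against 0.796, 0.548 and 0.717 FPKM in control replicates 1 to 3. Its log2 change was 0.10, with the widest interval of the 9 genes (-0.40 to 0.59, adjusted p = 0.778). For both genes the groups overlapped, and the sign of the change depended on the setting. The summed TET FPKM was 8.20 ± 0.55 in 5aza and 7.60 ± 0.10 in control, and the summed DNMT FPKM was 7.48 ± 0.24 times the TET sum in 5aza and 10.2 ± 1.34 times in control (SD, n = 3).

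In order of control level the genes ran UHRF1, DNMT1, HELLS, DNMT3B, UHRF2, TET3, DNMT3A, TET2, TET1 and DNMT3L. In 5aza libraries the order was the same. Over all 6 libraries, 91.9% of genes in the table had a lower mean than UHRF1, 89.3% than DNMT1 and 80.8% than HELLS, whereas TET1 stood above 29.1%. UHRF1 and DNMT1 did not overlap in 5aza libraries (63.6 to 70.1 FPKM for UHRF1 and 46.5 to 49.1 FPKM for DNMT1). In control libraries their ranges overlapped, at 74.6 to 77.4 FPKM for UHRF1 and 55.1 to 75.4 FPKM for DNMT1. Within each control library UHRF1 was still above DNMT1, with log2 ratios of DNMT1 to UHRF1 of -0.01, -0.33 and -0.44 in replicates 1 to 3. No other neighbours in the order overlapped within a group.

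Partners of maintenance methylation were taken from a list of 11 genes, of which 10 were tested. There were 5 falls and 0 rises, and 5 did not pass, where 13.1% of all genes tested fell and 10.6% rose. Among genes of at least 20 FPKM, 26.4% fell. Their median log2 fold change was -0.13. CDCA7, which recruits HELLS to chromatin, averaged 31.1 ± 0.48 FPKM in 5aza and 41.5 ± 0.54 FPKM in control (SD, n = 3), a log2 change of -0.41 (SE 0.03, limma adjusted p = 2.44e-04). LIG1, the replicative ligase whose methylated form UHRF1 binds, averaged 26.6 FPKM in 5aza and 34.2 FPKM in control (log2 change -0.36, adjusted p = 8.78e-04). The other falls were of CDCA7L, a paralogue of CDCA7, PCNA, the replication clamp, and KAT5, an acetyltransferase. USP7, which deubiquitinates UHRF1 and DNMT1, had 51.0 FPKM in 5aza and 49.4 FPKM in control (adjusted p = 0.372). These 4 other genes were named after their values were seen. The CDCA7 groups did not overlap, and its fall passed under all 17 alternative settings.

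Of 5 tested enzymes that methylate H3K36, the mark read by DNMT3A and DNMT3B, 2 were called, beside 23.7% of all genes tested. NSD2 fell (46.7 FPKM in 5aza, 58.7 FPKM in control, log2 change -0.33, limma adjusted p = 0.00369) and NSD1 rose (15.5 FPKM in 5aza, 13.3 FPKM in control, log2 change 0.22, adjusted p = 0.0211). The other 3 did not pass. The call for NSD1 was lost without 5aza replicate 2 (adjusted p = 0.0690), 5aza replicate 3 (0.0550) or control replicate 1 (0.0653).

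On the side of demethylation, 16 of 19 listed genes were tested, and 4 fell, 1 rose and 11 did not pass (median log2 fold change -0.11). Beside this, 13.1% of all genes tested fell and 10.6% rose. Of those with at least 20 FPKM, 26.4% fell and 8.53% rose. The falls with the largest changes were of the base excision repair genes XRCC1 (17.3 FPKM in 5aza, 20.9 FPKM in control, limma adjusted p = 0.0311) and APEX1 (161 FPKM in 5aza, 192 FPKM in control, adjusted p = 0.00377). The XRCC1 call was lost in 5 of the 6 subsets that leave out 1 library, with the highest adjusted p of 0.0902 without 5aza replicate 3. The other falls were of IDH1, which makes the TET cosubstrate 2-oxoglutarate (log2 change -0.12, adjusted p = 0.0277), and DCAF1 (-0.19, adjusted p = 0.0296), both named after their values were seen. The rise was of GADD45A, a stress gene and p53 target also proposed as a demethylation adaptor, with 44.5 FPKM in 5aza and 37.3 FPKM in control (log2 change 0.25, adjusted p = 0.00348). TDG, the glycosylase that removes TET products, had 17.8 FPKM in 5aza and 17.6 FPKM in control (adjusted p = 0.757) and was named after its values were seen.

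Of 13 tested genes that supply the methyl donor S-adenosylmethionine or clear its product, 2 fell, 0 rose and 11 did not pass. Their median log2 fold change was -0.03, and the shares over all genes tested were 13.1% fallen and 10.6% risen. For genes of at least 20 FPKM the shares were 26.4% and 8.53%. The falls were of the folate enzymes MTHFD1 (77.8 FPKM in 5aza, 96.9 FPKM in control, log2 change -0.32, limma adjusted p = 0.00206) and SHMT2 (154 FPKM in 5aza, 177 FPKM in control, log2 change -0.19, adjusted p = 0.0117). The SHMT2 call was lost under quantile normalization (adjusted p = 0.201), with the expression trend removed (0.127) and with scaling to non-zero rows (0.231). The last setting moved the median of all genes to 0.12. The enzymes that make the donor and remove its product did not pass, and were named after their values were seen: MAT2A had 148 FPKM in 5aza and 158 FPKM in control (adjusted p = 0.148), and AHCY 225 FPKM in 5aza and 223 FPKM in control (adjusted p = 0.803).

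**Figure D5:**
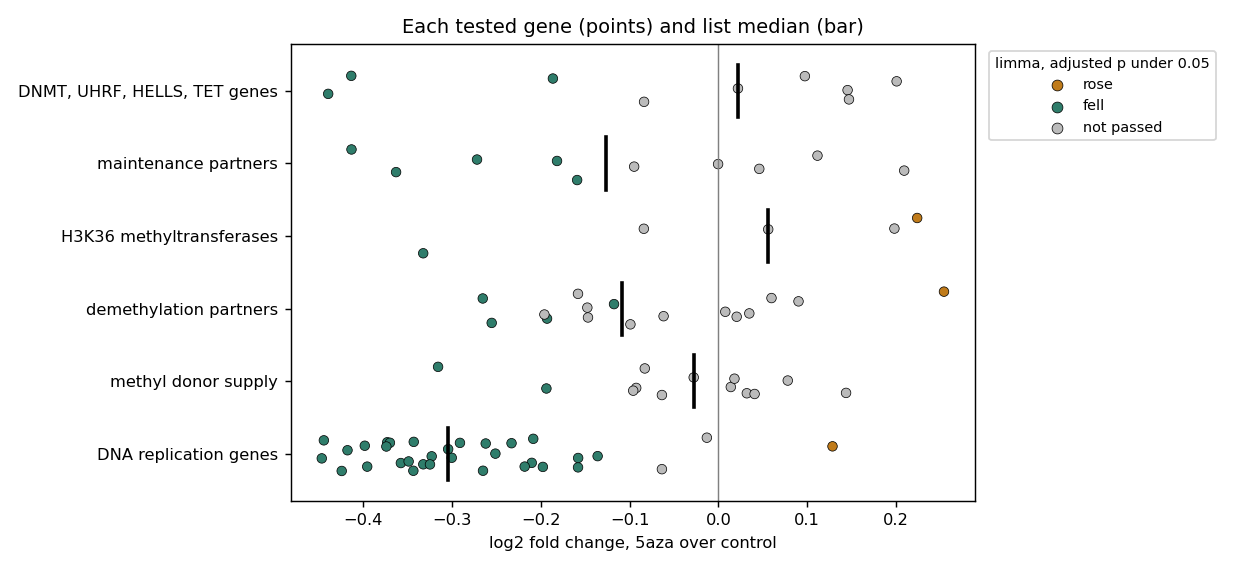
Log2 fold change of each tested gene (points, coloured by limma call) in the 10-gene group and in 5 lists of related genes, with list medians as bars. The median lies at -0.30 for DNA replication genes and between -0.13 and 0.06 for the others.

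Over the 6 libraries, the annotated genes of at least 10 FPKM whose log2 level went most closely with that of DNMT1 were TMEM14B (Pearson's r = 0.996), METTL2B (0.992) and PTOV1 (0.990). As for DNMT1, all 5aza libraries lay below all control libraries and control replicate 1 was the highest. TMEM14B had 79.5, 82.1 and 79.0 FPKM in 5aza replicates 1 to 3, against 99.3, 91.3 and 85.4 FPKM in control replicates 1 to 3. The points share libraries and were selected as the closest among all such genes, so the values are a description.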

How the data were processed

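RNA-seq values came as FPKM in 1 table deposited by the authors, with 16726 rows and 6 library columns. Per the submitters' processing notes, the tools named are STAR 2.5.1b, HTSeq 0.6.0 and DESeq2 1.10.1. The builds named there are GRCh38 and Rnor_6.0. Neither the program behind the FPKM nor its strand setting is given in the sources used here. Of 11 identifiers listed more than once, the more abundant row was used. Whole reads could not be recovered, so the depth is unknown. Summed FPKM was 577735 to 592051 in 5aza and 601916 to 628399 in control libraries.

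The values were tested with limma 3.58.1 (R 4.3.3, variance trend) on log2(FPKM + 0.1), which understates changes of low genes. Genes needed 0.5 FPKM in 3 libraries, which left 12360, and p-values were adjusted by Benjamini-Hochberg over them (threshold 0.05). The script was tested on simulated data. Named were the 10 genes, up to 2 rises and 2 falls of largest change per list, and the 3 genes most like DNMT1. Members and lists were chosen with earlier results of these data known. CXXC5, OGT, PRIM1 and FEN1 were not analysed here. Promoters came from a RefSeq table (GRCh38.p14). There were 17 alternatives, 1 of them chosen after seeing the data (scaling to the upper quartile of each library's non-zero rows).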

Additional observations from a re-analysis of the deposited data

How the results depend on the processing

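Of 407 values of named genes under the 17 alternatives, 322 kept direction and side of the threshold, which counts genes that passed in neither fit. With direction kept, 61 no longer passed and 8 newly passed, and 16 changed sign. The fall of DNMT1 kept direction and call under 9 of the 17, that of UHRF1 under 11 and that of HELLS under 16. As reported, 2929 genes and 3 of the 9 members were called. Scaling to DNA replication genes called 8113 genes, 6 members, 9 donor supply genes and 10 replication genes, and moved the median of all genes to 0.27. Scaling to the upper quartile of non-zero rows, added after seeing the data, called 4 donor supply genes. Removing the expression trend left 1 donor supply gene, and no variance trend 3 demethylation partners. The share of rises among all calls was 44.7% and became 87.8% with non-zero rows, 99.1% with replication scaling, 59.2% with the expression trend removed and 56% with no filter.

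Changes of sign were, under replication scaling, DNMT3B 0.194, UHRF1 0.0911, XRCC1 0.0122, APEX1 0.0222, SHMT2 0.0838, TMEM14B 0.0830, METTL2B 0.0235 and PTOV1 0.14. DNMT3B had 0.0430 with non-zero rows. TET1 had -0.25 and TET2 -0.11 under quantile normalization, and -0.0918 and -0.0549 with the trend removed. With 1 library left out, TET1 ranged from -0.0365 (without control replicate 2) to 0.222, and was also below 0, at -0.0213, without 5aza replicate 2. TET2 ranged from -0.0243 (without control replicate 1) to 0.0517. The cause was not tested.

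Leaving out 1 library gave 1635 to 2607 genes, 1 to 3 members, 3 to 5 maintenance partners, 1 to 2 H3K36 methyltransferases, 2 to 4 demethylation partners, 2 donor supply genes, 25 to 28 replication genes, and a difference in DNMT1 share (5aza minus control) of -5.35 to -3.38 percentage points. Same-numbered libraries deviated together weakly (r = 0.048, 0.077 and 0.068), against -0.091 to 0.019 for libraries of unlike number. The labels give no pairing, and such small values cannot settle whether the numbers pair the libraries. With a replicate block 2932 genes, 3 members and 7 maintenance partners were called. The unknown depth limits DNMT3L and TET1 most.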
